A study of Mus musculus with 30 samples.

Results

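Livers of mice given cisplatin were compared with livers of mice put under restraint stress, where both had received acyl-CoA-binding protein (ACBP) from a pump. The samples were chosen by their treatment label and made up 10 of the 30 in the series, 5 in each group. All came from wild-type female C57BL/6J mice, 8 weeks old when an osmotic pump holding 2.5 mg/mL of recombinant ACBP was implanted. In the CDDP+ACBP group anorexia was brought on with cisplatin (CDDP) 72 hours after the pump, and in the CRS+ACBP group by CRS 48 hours after it. CRS appears in the labels as letters alone and is read here as restraint stress. Beside this comparison stand the same models under a pump of phosphate-buffered saline (PBS; groups CDDP and CRS, 5 samples each) and the 5 samples with the ACBP pump and no anorexia model (group ACBP). The models also began at different times after the pump, and no group had food restricted alone, so the agent, its timing and lower food intake cannot be told apart. The labels do not say that each sample came from a separate animal, and p-values therefore measure the spread between samples.

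Cisplatin crosslinks DNA, and the damage stabilises p53, a transcription factor that turns on genes for cell cycle arrest, DNA repair and apoptosis as well as Mdm2, which encodes its own inhibitor. ACBP, encoded by Dbi, binds acyl-CoA esters inside cells and also acts outside them as a signal that stimulates appetite. Many liver genes differ between the sexes because the pituitary releases growth hormone in pulses in males and more evenly in females, and the hormone acts through STAT5b. Kupffer cells are the macrophages that reside in the liver sinusoids.

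The data were raw counts of reads per gene on mouse build mm10. The 10 samples held 15376103 to 17354097 reads on genes, and levels are given as CPM, reads scaled to library totals with TMM factors. Hepatocyte markers were high in all 10, in keeping with the tissue label, with a summed level of 108980 to 116930 CPM in CRS+ACBP and 48414 to 108970 CPM in CDDP+ACBP. CDDP+ACBP replicate 3 held the 48414 CPM, and the other CDDP+ACBP samples 88725 CPM or more. Transcripts of skeletal muscle varied within both groups. All 25 muscle markers passed the filter on low counts, and their summed level ran from 35.6 to 4363 CPM in CDDP+ACBP and from 84.1 to 3118 CPM in CRS+ACBP. Reads from mitochondrial genes made up 9.19% ± 3.02 (SD, n = 5) of counts in CDDP+ACBP and 8.16% ± 4.17 in CRS+ACBP. That difference lay within the spread of samples (2-sided exact permutation p = 0.698, where 0.00794 is the smallest p that 5 against 5 can give).

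Genes of the p53 response were higher after cisplatin than after restraint, and male-high liver genes and transcripts of Kupffer cells were lower. Of 16304 genes tested, edgeR's quasi-likelihood test called 55 at a Benjamini-Hochberg adjusted p under 0.05, which is 0.337% of them. Of these, 31 (0.19%) were higher and 24 (0.147%) lower in CDDP+ACBP. In 41 of the 55 the groups did not overlap, as in 326 genes or 2% of all those tested. The largest rises and falls were named below only where the groups did not overlap, so their separation follows from that choice. The median log2 fold change over all tested genes was -0.01. Log2 fold changes are CDDP+ACBP over CRS+ACBP unless another contrast is named, are given ± an approximate standard error (SE), and come from 1 fit of all 30 samples. Without CDDP+ACBP replicate 3, 17 genes were called, all of them among the 55, while 79 were called without CDDP+ACBP replicate 5. Without the 7 samples of the series richest in muscle or brain transcripts, 22 were called, 18 of them among the 55. That fit kept 4 CDDP+ACBP, 3 CRS+ACBP and 3 ACBP samples, so smaller groups and muscle content cannot be told apart in it. All 55 kept their direction in each of these fits.

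Of 35 p53 targets listed, 34 passed the filter on low counts. Of these, 9 were called higher in CDDP+ACBP and 0 lower, where 0.19% of all genes were called higher. Their median log2 fold change was 0.78, against -0.01 over all genes. The 9 were Aen, Bax, Cdkn1a, Eda2r, Gdf15, Mdm2, Plk2, Polk and Psrc1. The p53 protein binds DNA at pairs of a degenerate decamer, and RefSeq promoters on GRCm38.p6 (mm10 with patches), from 250 bases before to 50 after each start, were searched for 1 copy on both strands. Promoters were found for 26 of the 35 genes, and 10 of them (38.5%) held the decamer. Counted by gene in the same way, so did 937 of 11061 tested genes with a promoter (8.5%). Counted by promoter, it was in 2745 of 32851 genome-wide (8.4%). Among the 9 called genes it was present in 5, which are shown because they are the called members with the decamer near their start. The windows are chr17:29090876-29090967 on the plus strand for Cdkn1a, chr10:117710905-117710974 on the minus strand for Mdm2, chr7:45467060-45467129 on the minus strand for Bax, chr7:78895927-78895956 on the plus strand for Aen and chr13:96519379-96519437 on the minus strand for Polk. Each reads 5′ to 3′ along its gene, with the decamer in capitals.
Cdkn1a: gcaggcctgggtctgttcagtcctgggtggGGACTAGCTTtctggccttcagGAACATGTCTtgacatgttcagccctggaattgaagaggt
Mdm2: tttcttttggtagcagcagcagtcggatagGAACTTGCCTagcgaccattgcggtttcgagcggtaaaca
Bax: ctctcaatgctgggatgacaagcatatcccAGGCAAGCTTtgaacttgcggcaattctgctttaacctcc
Aen: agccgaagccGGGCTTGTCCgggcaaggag
Polk: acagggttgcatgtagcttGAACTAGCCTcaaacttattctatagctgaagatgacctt
Cdkn1a carried it at 42 to 51 and again at 64 to 73 bases before the start, and the others 1 copy each, from 112 to 121 bases before the start in Aen to 222 to 231 in Polk. The Aen window overlaps an annotated exon of Aen, and the other windows overlap no exon. The Polk window lies inside the gene as GENCODE annotates it. The same search for the STAT5 site TTCNNNGAA, in promoters of the male-high genes described further on, was added after values were seen. It found the site in 1 of 17 genes (5.9%), in 940 of the 11061 tested genes (8.5%) and in 2726 of all 32851 promoters (8.3%). Among the 9 called male-high genes with a promoter, 0 held it. A match is a description of the letters and not a measured binding site.

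Aen (ENSMUSG00000030609, chromosome 7, 78895854 to 78911209), an exonuclease gene that p53 turns on in apoptosis, had the smallest adjusted p of the p53 list. It stood at 35.2, 28, 64.7, 16.1 and 15.9 CPM in the CDDP+ACBP samples and at 9.95, 7.24, 12.3, 4.80 and 9.90 CPM in the CRS+ACBP samples. Every cisplatin sample was above every restraint sample, and the difference was a log2 fold change of 1.85 ± 0.28 (edgeR adjusted p = 0.002). Without CDDP+ACBP replicate 3, the highest sample, it was 1.43 (edgeR adjusted p = 0.009).

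Mdm2 (ENSMUSG00000020184, chromosome 10, 117688875 to 117710758), whose product marks p53 for degradation, was at 69.5, 60.1, 139, 46.2 and 51.5 CPM in CDDP+ACBP. In CRS+ACBP it was at 36.9, 28.9, 29.4, 32.4 and 41.2 CPM. The groups did not overlap, replicate 3 stood far above the other cisplatin samples, and the log2 fold change was 1.12 ± 0.20 (edgeR adjusted p = 0.0072). Without that replicate it was 0.75 (edgeR adjusted p = 0.0215). The Mdm2 call ended without the samples richest in muscle or brain transcripts and in a fit of only the 2 groups.

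Bax, whose product opens pores in the mitochondrial membrane during apoptosis, was at 65.5, 46.6, 106, 44.0 and 48.6 CPM in CDDP+ACBP and at 22.1, 27.1, 25.9, 36.5 and 31.7 CPM in CRS+ACBP. No restraint sample reached the lowest cisplatin sample (log2 fold change 1.12 ± 0.20, edgeR adjusted p = 0.00843). Eda2r, a receptor of the tumour necrosis factor family for ectodysplasin A2, was expressed low. It stood at 2.38, 3.51, 3.91, 2.45 and 1.75 CPM in CDDP+ACBP and at 0.0622, 0.245, 0.188, 0.540 and 0.611 CPM in CRS+ACBP, again without overlap (log2 fold change 3.07 ± 0.50, edgeR adjusted p = 0.00422).

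Cdkn1a (ENSMUSG00000023067, chromosome 17, 29090976 to 29100727) encodes p21, which halts the cell cycle. Its levels were 63.2, 37.0, 52.8, 5.12 and 16.4 CPM in CDDP+ACBP and 12.1, 2.82, 1.81, 3.18 and 1.02 CPM in CRS+ACBP. CDDP+ACBP replicate 4 lay below CRS+ACBP replicate 1, so the groups overlapped (log2 fold change 3.05 ± 0.67, edgeR adjusted p = 0.0332). The call ended in 6 of the 10 fits that left out 1 sample, among them that without CDDP+ACBP replicate 3 (2.85, edgeR adjusted p = 0.127).

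Gdf15 encodes a hormone that lowers appetite through a receptor in the hindbrain, and p53 is 1 of its activators. It was at 76.6, 21.6, 57.7, 28.4 and 73.4 CPM in CDDP+ACBP and at 14.5, 16.4, 7.89, 12 and 10.2 CPM in CRS+ACBP. All cisplatin samples were above all restraint samples (log2 fold change 2.08 ± 0.48, edgeR adjusted p = 0.0466). The call was close to the threshold and ended in 8 of the 10 fits that left out 1 sample, with adjusted p of up to 0.156. In the ACBP group, with no anorexia model, Gdf15 stood at 31.9 ± 19.4 CPM (SD, n = 5), between those groups.

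Polk, a DNA polymerase that copies past damaged bases, ran from 7.06 to 19.1 CPM in CDDP+ACBP and from 3.19 to 4.95 CPM in CRS+ACBP (log2 fold change 1.50 ± 0.28, edgeR adjusted p = 0.00974). Plk2, a kinase of the stress response, ran from 15.9 to 48.1 CPM against 7.70 to 12.6 CPM (1.53 ± 0.32, edgeR adjusted p = 0.0226). Psrc1, a microtubule-binding protein gene, ran from 1.2 to 8.91 CPM against 0 to 0.814 CPM (3.18 ± 0.66, edgeR adjusted p = 0.0204). Their calls held in 9, 4 and 6 of the 10 fits that left out 1 sample. Other p53 targets did not pass the edgeR test. Trp53inp1 had a log2 fold change of 1.41 (adjusted p = 0.245), Phlda3 of 2.58 (0.174), Ccng1 of 1.02 (0.259) and Zmat3 of 0.98 (0.171), while Bbc3 stood at -0.10 (0.929) and Sesn1 at 0.00 (0.998). The list's count of 9 was 4 without CDDP+ACBP replicate 3, 4 without the samples richest in muscle or brain transcripts, 5 without CRS+ACBP replicate 2, 3 or 4, 2 when a fold of at least 1.5 was required, and 2 (Eda2r and Gdf15) in a fit of only the 2 groups. Of the 9 themselves, only Aen, Bax and Eda2r kept their calls without the samples richest in muscle or brain transcripts.

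**Figure D1:**
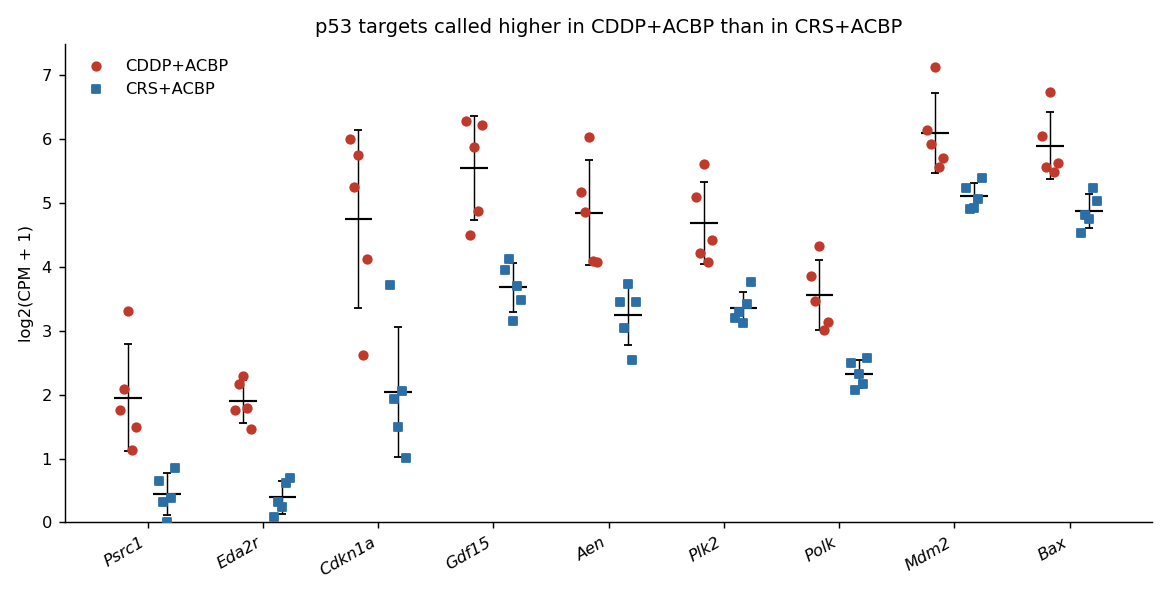
Levels of the 9 called p53 targets, as log2(CPM + 1) on the vertical axis, in the 5 CDDP+ACBP samples (red circles) and the 5 CRS+ACBP samples (blue squares); black lines are means and bars SD on that scale. The groups are apart in every gene except Cdkn1a, and 1 cisplatin sample, replicate 3, is the highest for all but Cdkn1a and Gdf15.

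Genes outside that list were also higher after cisplatin. Gria3, a subunit of a glutamate receptor, had the smallest adjusted p among the genes called higher. It was at 9.62, 10.5, 29.8, 4.73 and 8.10 CPM in CDDP+ACBP and at 1.43, 0.368, 1.25, 0.300 and 0.814 CPM in CRS+ACBP. The groups lay well apart (log2 fold change 3.91 ± 0.54, edgeR adjusted p = 0.000389). Atp8b5, a phospholipid flippase gene, was at 8.67, 5.37, 6.25, 2.28 and 6.03 CPM against 0.809, 1.10, 0.876, 1.26 and 1.36 CPM, without overlap (2.40 ± 0.45, edgeR adjusted p = 0.00996).

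Hmcn2, which encodes an extracellular matrix protein, ran from 12.9 to 56.3 CPM against 7.87 to 10.9 CPM (log2 fold change 1.48 ± 0.32, edgeR adjusted p = 0.0308). Cdc42bpg, a kinase gene, ran from 26.4 to 73.7 CPM against 19 to 25.7 CPM (1.01 ± 0.19, edgeR adjusted p = 0.00982). The Hmcn2 call held in 3 of the 10 fits that left out 1 sample and that of Cdc42bpg in 9. Further genes called higher included Notch1, Nrg1, Mybl1, Syt12, Ddias, Cox6b2 and Trp53cor1, the long noncoding RNA gene next to Cdkn1a, chosen here after their values were seen. In that order, their calls held in 6, 4, 3, 4, 6, 2 and 1 of the 10 fits that left out 1 sample. All of these calls ended without the samples richest in muscle or brain transcripts. The groups overlapped in Notch1, Mybl1, Syt12 and Ddias. Nrg1 and Trp53cor1 stayed under 4 CPM in all 10 samples of these groups.

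Male-high liver genes were lower after cisplatin than after restraint in these female mice. Of 25 listed, 23 passed the filter on low counts, 10 were called lower and 0 higher, where 0.147% of all genes were called lower. The median log2 fold change was -1.93, against -0.01 over all genes. The 10 were Mup1, Mup7, Mup11, Slco1a1, Hsd3b5, Serpina1e, C6, C8b, Selenbp2 and Ugt2b38. The count was 6 without CDDP+ACBP replicate 1 or 3, 8 without the samples richest in muscle or brain transcripts, 6 when a fold of at least 1.5 was required, and 5 in a fit of only the 2 groups. Selenbp2 was close to the threshold (log2 fold change -2.365 ± 0.547, edgeR adjusted p = 0.049), and its groups overlapped. CRS+ACBP replicate 5 held 183 CPM of it, and the other restraint samples 27.6 to 43.6 CPM. The Selenbp2 call held in 2 of the 10 fits that left out 1 sample and ended with RLE normalization.

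Slco1a1 (ENSMUSG00000041698, chromosome 6, 141907282 to 141946962), a transporter that takes up bile acids and other organic anions, had the smallest adjusted p of all genes tested. It was at 5.23, 8.39, 7.18, 14.5 and 12 CPM in CDDP+ACBP and at 169, 101, 98.3, 77.0 and 141 CPM in CRS+ACBP. The lowest restraint sample was above every cisplatin sample (log2 fold change -3.63 ± 0.44, edgeR adjusted p = 7.03e-05). The call held in all 10 fits that left out 1 sample.

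Serpina1e (ENSMUSG00000072849, chromosome 12, 103946931 to 103958975), of the alpha-1-antitrypsin family of protease inhibitors, was at 8.08, 19.4, 15.5, 39.2 and 35.7 CPM in CDDP+ACBP. In CRS+ACBP it was at 671, 1213, 356, 194 and 910 CPM. The groups lay far apart (log2 fold change -4.83 ± 0.86, edgeR adjusted p = 0.0072). It has near-identical neighbours, among which the counting may have split reads, so its level is uncertain.

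The Mup genes encode major urinary proteins, which carry pheromones in urine. Mup1, Mup7, Mup10, Mup11, Mup14 and Mup15, all on the minus strand of chromosome 4 between 60066469 and 61439743, were called lower. They too are near-identical copies and uncertain one by one. Mup11 was at 1.54, 1.59, 0.761, 1.65 and 10.8 CPM in CDDP+ACBP and at 59.5, 38.8, 46.9, 21.9 and 156 CPM in CRS+ACBP (log2 fold change -4.32 ± 0.73, edgeR adjusted p = 0.00495). Mup10 was at 1.13, 2.18, 1.2, 2.33 and 5.96 CPM against 14.5, 15.2, 15.9, 18.5 and 14.1 CPM (-2.62 ± 0.54, edgeR adjusted p = 0.0204). The Mup11 call held in all 10 fits that left out 1 sample and that of Mup10 in 4. In both genes CDDP+ACBP replicate 5 was the highest cisplatin sample and still below all restraint samples. Mup1, Mup7, Mup14 and Mup15 had log2 fold changes of -4.39, -4.81, -3.52 and -5.10 at low levels, and in CDDP+ACBP none of these exceeded 1.75 CPM.

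Mup3 held most of the reads of the family. It was at 881, 1196, 327, 1620 and 1893 CPM in CDDP+ACBP and at 3958, 2902, 3736, 1981 and 3521 CPM in CRS+ACBP, without overlap, but did not pass (log2 fold change -1.44 ± 0.35, edgeR adjusted p = 0.0757). Summed over all Mup genes tested, the level was 343 to 2042 CPM in CDDP+ACBP and 2192 to 4259 CPM in CRS+ACBP. The sum does not depend on how counted reads were split among these genes, but it misses any reads not assigned to a gene.

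Hsd3b5, a male-high steroid dehydrogenase gene, was at 0.178, 0.212, 0.544, 0.512 and 0.583 CPM in CDDP+ACBP and at 16.4, 5.40, 6.01, 1.56 and 15.4 CPM in CRS+ACBP. The log2 fold change was -4.44 ± 0.87 (edgeR adjusted p = 0.0133). With no anorexia model, Hsd3b5 was also low, at 0.400 ± 0.335 CPM under the PBS pump and 1.01 ± 0.744 CPM under the ACBP pump (SD, n = 5). Against the ACBP group its log2 fold change was -1.305 in CDDP+ACBP and 3.14 in CRS+ACBP, and neither passed the edgeR test. Sult5a1, a sulfotransferase gene outside the list, ran from 2.2 to 20.7 CPM against 23.4 to 116 CPM (-2.23 ± 0.50, edgeR adjusted p = 0.0398). Ugt2b38, a glucuronosyltransferase gene, ran from 0.0544 to 0.626 CPM against 0.688 to 5.50 CPM (-3.25 ± 0.74, edgeR adjusted p = 0.0445). In the 10 fits that left out 1 sample the call held 4 times for Sult5a1, 2 times for Ugt2b38 and 8 times for Hsd3b5. The Sult5a1 and Ugt2b38 calls also ended without the samples richest in muscle or brain transcripts.

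C6 and C8b encode parts of the membrane attack complex of complement and are male-high in mouse liver. C6 was at 4.40, 6.21, 6.09, 8.88 and 10.2 CPM in CDDP+ACBP and at 37.2, 20.3, 14.4, 12.7 and 19.7 CPM in CRS+ACBP (log2 fold change -1.54 ± 0.31, edgeR adjusted p = 0.0181). C8b was at 50.1, 58.2, 18.9, 44.1 and 55.7 CPM against 214, 139, 112, 76.8 and 119 CPM (-1.54 ± 0.28, edgeR adjusted p = 0.00794). Neither gene's groups overlapped. They were the only called members among 31 complement and coagulation genes tested. Their partners C8a (log2 fold change -0.71, adjusted p = 0.364), C8g (-0.16, 0.868) and C9 (-1.10, 0.407) did not pass.

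The lists of female-high genes and of growth hormone action gave 0 calls. Sult2a3, a sulfotransferase gene outside the lists and chosen after its values were seen, was called higher (log2 fold change 3.19 ± 0.73, edgeR adjusted p = 0.046). It ran from 0.843 to 7.37 CPM against 0 to 0.376 CPM, and its call held in 3 of the 10 fits that left out 1 sample. Of 25 female-high genes tested, 0 were called, with a median log2 fold change of -0.17. Of 17 genes of the growth hormone and IGF axis, 0 were called, with a median of 0.14. Igf1, the growth factor that growth hormone induces in liver, stood at 630 ± 267 CPM (SD, n = 5) in CDDP+ACBP and 1047 ± 270 CPM in CRS+ACBP (log2 fold change -0.73, edgeR adjusted p = 0.245). Stat5b was at 68 ± 16 and 61.6 ± 16.7 CPM (0.14, edgeR adjusted p = 0.824).

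**Figure D2:**
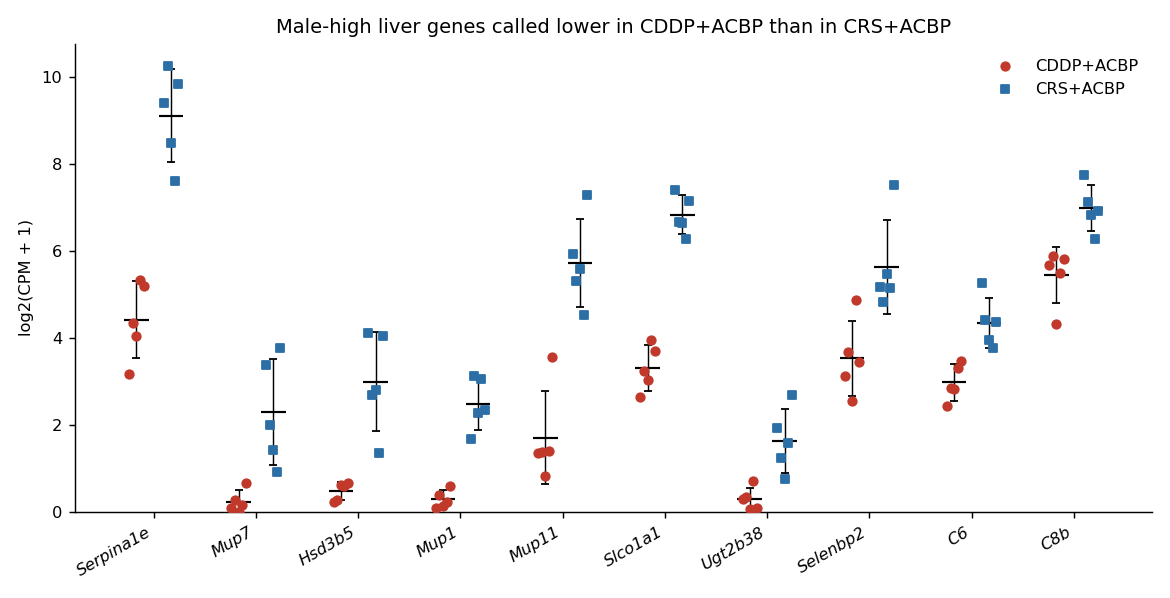
Levels of the 10 called male-high genes, as log2(CPM + 1) on the vertical axis, in the 5 CDDP+ACBP samples (red circles) and the 5 CRS+ACBP samples (blue squares); black lines are means and bars SD on that scale. The groups are apart in every gene except Selenbp2.

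Transcripts of Kupffer cells and macrophages were lower after cisplatin. All 16 markers listed were tested, 6 were called lower and 0 higher, and the median log2 fold change was -0.80, against -0.01 over all genes and 0.147% of genes called lower. The summed level of the 16 was 260 to 396 CPM in CDDP+ACBP and 377 to 643 CPM in CRS+ACBP. In bulk liver, fewer cells of a type and less RNA per cell cannot be told apart.

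C1qa, C1qb and C1qc, side by side on chromosome 4 (136880129 to 136898803), encode the chains of complement C1q, which liver macrophages make. C1qa was at 28.3, 43.1, 18.3, 30.8 and 39.3 CPM in CDDP+ACBP and at 72, 79.8, 42.6, 65.9 and 60.6 CPM in CRS+ACBP. The groups met only at CRS+ACBP replicate 3, which fell just below CDDP+ACBP replicate 2 (log2 fold change -1.0 ± 0.21, edgeR adjusted p = 0.0195). C1qb ran from 13 to 22.8 CPM against 22.2 to 43.3 CPM (-0.87 ± 0.18, edgeR adjusted p = 0.0207). C1qc ran from 6.47 to 22.8 CPM against 25.5 to 40.7 CPM (-1.05 ± 0.22, edgeR adjusted p = 0.0231).

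Timd4, a receptor of resident Kupffer cells for dying cells, was at 2.14, 3.93, 2.39, 2.51 and 3.44 CPM in CDDP+ACBP and at 6.34, 7.12, 3.57, 8.22 and 6.44 CPM in CRS+ACBP (log2 fold change -1.14 ± 0.24, edgeR adjusted p = 0.0226). Restraint samples were higher except replicate 3, which lay among the cisplatin samples. Cd163, a scavenger receptor for haemoglobin (-1.02, edgeR adjusted p = 0.0445), and Csf1r, the receptor of the macrophage growth factor (-0.65, edgeR adjusted p = 0.0255), were lower as well.

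Among markers that did not pass, Clec4f was at 76.7 ± 20.7 CPM (SD, n = 5) in CDDP+ACBP and 122 ± 30.4 CPM in CRS+ACBP (log2 fold change -0.67, edgeR adjusted p = 0.317). Vsig4 had -1.04 (0.154), Cd5l -0.76 (0.158) and Marco 0.66 (0.514). The Kupffer count was the least stable of the 3 lists. It was 0 without CDDP+ACBP replicate 1, 0 without CRS+ACBP replicate 2, 1 without CDDP+ACBP replicate 3 and 2 without CRS+ACBP replicate 1, 4 or 5. It was 4 without the samples richest in muscle or brain transcripts, 0 when a fold of at least 1.5 was required, and 0 in a fit of only the 2 groups.

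The samples with the ACBP pump and no anorexia model show on which side each group of genes differed. Each model was set against the same 5 ACBP samples, so the values are given side by side only. CDDP+ACBP against ACBP gave 21 calls (0.129% of genes) and CRS+ACBP against ACBP gave 0 (0%) by edgeR, with 790 and 1194 genes at an unadjusted p under 0.05. The 21 became 0 without the samples richest in muscle or brain transcripts, 5 without CDDP+ACBP replicate 1 or 3, 39 without CDDP+ACBP replicate 4, and 8 to 12 without ACBP replicate 2, 3, 4 or 5. For the cisplatin contrast DESeq2 called 91 genes and limma voom 70. For the restraint contrast DESeq2 called 20 genes and limma voom 19. Among p53 targets, 4 were called higher in CDDP+ACBP than in ACBP and 0 in CRS+ACBP, with medians of 0.55 and -0.02. Aen had log2 fold changes of 1.71 ± 0.28 (edgeR adjusted p = 0.00541) and -0.14 ± 0.28 (0.924) in those contrasts. In the same order, Mdm2 had 1.05 and -0.07, Eda2r 3.54 and 0.48, Cdkn1a 2.95 and -0.11, and Psrc1 2.92 and -0.26. Bax had 0.65 and -0.47, Plk2 0.95 and -0.57, Polk 1.07 and -0.43, and Gdf15 0.69 and -1.385. For Gdf15 the larger difference was thus on the restraint side. Among Kupffer markers, 6 were called lower in CDDP+ACBP than in ACBP and 0 in CRS+ACBP, with medians of -0.94 and -0.13. C1qa had -1.06 (edgeR adjusted p = 0.0218) and -0.06 (0.962).

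Male-high genes lay on both sides of the ACBP samples, with medians of -0.80 for CDDP+ACBP and 1.17 for CRS+ACBP and 0 genes called in either contrast. Slco1a1 stood at 28.1 ± 16.2 CPM (SD, n = 5) in ACBP, above the cisplatin samples at 9.46 ± 3.75 and below the restraint samples at 117 ± 37.0. Its log2 fold changes against ACBP were -1.57 (edgeR adjusted p = 0.164) and 2.06 (0.236). Neither passed alone, while the direct comparison of the models did.

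**Figure D3:**
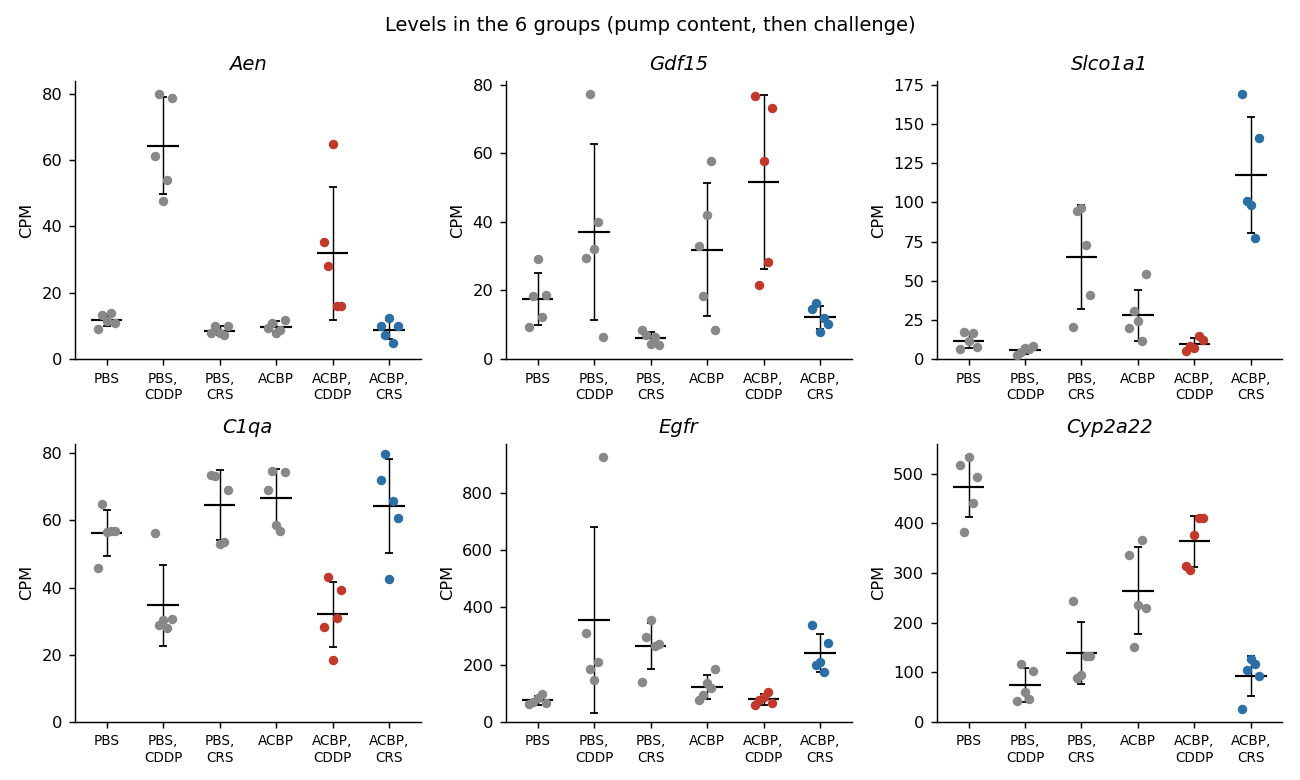
Levels of Aen, Gdf15, Slco1a1, C1qa, Egfr and Cyp2a22 in CPM on linear axes in the 6 groups of 5 samples, with CDDP+ACBP in red and CRS+ACBP in blue; lines are means and bars SD. Aen is raised in both cisplatin groups, and Slco1a1 is highest in CRS+ACBP. Cyp2a22 has its highest mean with the PBS pump and no anorexia model. Its means in CRS+ACBP and in both models with the PBS pump are below that in CDDP+ACBP.

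The same models differed far more under the PBS pump. CDDP against CRS, which shares no sample with the comparison above, gave 5639 calls (34.6% of genes), 3177 higher (19.5%) and 2462 lower (15.1%) in CDDP. Signs of RNA and cell content moved with it. Mitochondrial genes took 2.74 to 3.81% of reads in CDDP and 6.95 to 17.4% in CRS, and 11 of 12 mitochondrially encoded mRNAs were called lower in CDDP (median -1.42), with 9 called in the interaction. Of 14 B and plasma cell markers, 11 were called lower (median -2.12), with 10 called in the interaction. Their part in the PBS pump results was not tested. The difference between the pumps in this contrast, tested as an interaction, was called for 3412 genes (20.9%). Of the 55 genes called under the ACBP pump, 45 were also called under the PBS pump, which is 81.8% of the 55 and 0.798% of the 5639. Direction was the same in 51 of the 55, as in 47.6% of all genes tested. Of the p53 targets, 9 were called higher in the cisplatin group under the ACBP pump and 22 under the PBS pump, with medians of 0.78 and 1.34. The interaction was called lower for 6 and higher for 1 of the 34 p53 targets tested, a share near the 20.9% of all genes. Over all genes it was called lower for 1933 and higher for 1479.

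Cdkn1a was the called p53 target with the largest difference between the pumps. Under the PBS pump it stood at 311 ± 129 CPM (SD, n = 5) in CDDP and 1.51 ± 0.453 CPM in CRS, and under the ACBP pump at 34.9 ± 24.3 and 4.19 ± 4.52 CPM. Its log2 fold change was lower by the interaction, -4.62 ± 0.95 (edgeR adjusted p = 0.0015). For Mdm2 the interaction was -0.14 ± 0.28 (edgeR adjusted p = 0.759) and for Bax 0.07 (0.893), so no difference between the pumps was detected in these.

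Cyp2a22 (ENSMUSG00000091867, chromosome 7, 26931631 to 26939384), a cytochrome P450 gene, went the other way under the PBS pump. It was at 314, 305, 377, 411 and 411 CPM in CDDP+ACBP and at 25.1, 104, 126, 116 and 92.5 CPM in CRS+ACBP, with no overlap (log2 fold change 1.97 ± 0.34, edgeR adjusted p = 0.00636). Under the PBS pump it was at 73.3 ± 34.3 CPM (SD, n = 5) in CDDP and 138 ± 62.0 CPM in CRS (-0.91, edgeR adjusted p = 0.0325). The interaction was 2.88 ± 0.47 (edgeR adjusted p = 0.000252). With no anorexia model, Cyp2a22 averaged 473 ± 61.6 CPM under the PBS pump and 264 ± 87.5 CPM under the ACBP pump (SD, n = 5). Against the ACBP group its log2 fold change was 0.46 in CDDP+ACBP and -1.51 in CRS+ACBP, and neither passed the edgeR test. Reads may be shared with other Cyp2a genes. Plekhg5, chosen after its values were seen, was the other gene called in opposite directions (1.17 under the ACBP pump and -0.87 under the PBS pump).

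Cyp3a59, another P450 gene, was at 199, 118, 170, 77.9 and 120 CPM in CDDP+ACBP and at 41.4, 64.0, 64.0, 54.7 and 56.6 CPM in CRS+ACBP (log2 fold change 1.29 ± 0.29, edgeR adjusted p = 0.0389). All cisplatin samples were above all restraint samples, and under the PBS pump the log2 fold change was -0.09 (edgeR adjusted p = 0.827; interaction 1.38, adjusted p = 0.0157). The Cyp3a59 call held in 3 of the 10 fits that left out 1 sample, and it ended with limma voom and without the samples richest in muscle or brain transcripts (1.39, edgeR adjusted p = 0.251). Cyp2a22 and Cyp3a59 were the only called genes of 33 tested in cytochrome P450 families 1 to 3, whose median was -0.14.

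Egfr (ENSMUSG00000020122, chromosome 11, 16752203 to 16918158), the receptor of epidermal growth factor, was at 59.7, 75.5, 87.0, 105 and 64.1 CPM in CDDP+ACBP. In CRS+ACBP it was at 337, 199, 210, 176 and 276 CPM. The cisplatin samples were all lower (log2 fold change -1.61 ± 0.36, edgeR adjusted p = 0.0389). The call held in 1 of the 10 fits that left out 1 sample, that without CDDP+ACBP replicate 4, and ended without the samples richest in muscle or brain transcripts (-1.78, edgeR adjusted p = 0.19). The log2 fold change stayed between -1.74 and -1.46 in those 10 fits. Under the PBS pump Egfr was at 356 ± 326 CPM (SD, n = 5) in CDDP and 265 ± 80.3 CPM in CRS, and the interaction was -2.04 ± 0.50 (edgeR adjusted p = 0.00558). CDDP replicate 5 alone held 928 CPM. Without it the CDDP mean was 213 ± 70.6 CPM (SD, n = 4), below that of CRS, and the interaction was -1.29 (edgeR adjusted p = 0.013). Serpina1e also differed between the pumps, at 147 ± 189 CPM in CDDP and 298 ± 188 CPM in CRS under the PBS pump (interaction -3.81, edgeR adjusted p = 0.0129). CDDP replicate 5 was again the highest sample of its group, at 476 CPM. Without it the CDDP mean was 65.2 ± 51.5 CPM (SD, n = 4) and the interaction did not pass (-2.63, edgeR adjusted p = 0.0539).

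**Figure D4:**
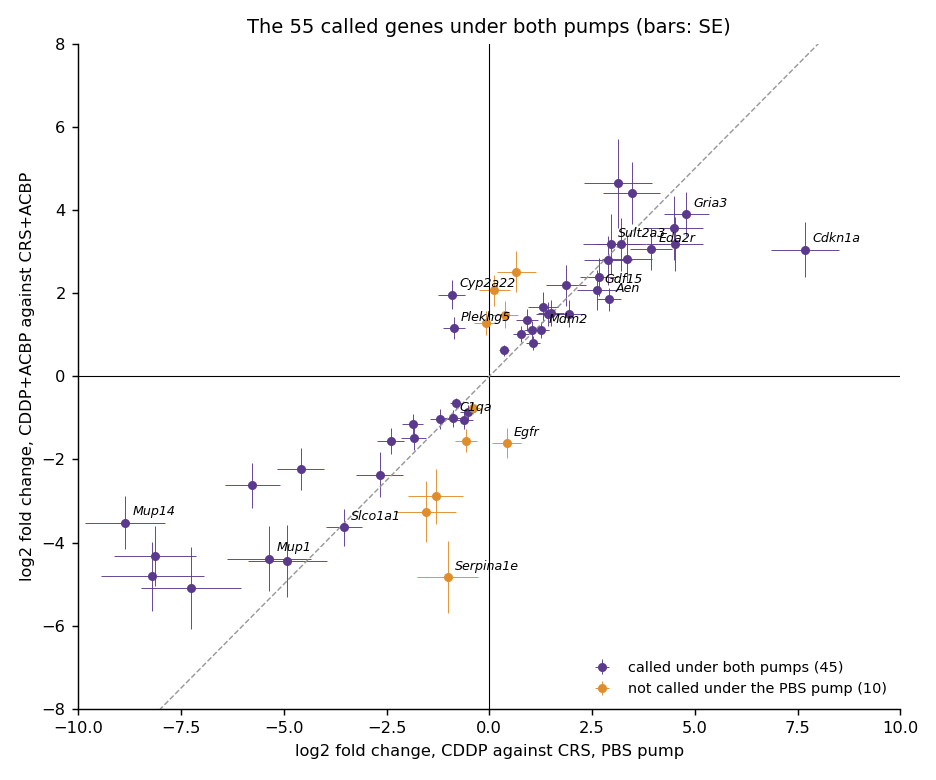
Log2 fold change of the 55 called genes under the ACBP pump (vertical) against the same contrast under the PBS pump (horizontal), with bars for the SE; the 45 genes called under both pumps are purple and the 10 others orange. Cyp2a22 and Plekhg5 lie in the upper left, Egfr in the lower right, and Cdkn1a far to the right of the dashed line of equal values.

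The 5 genes with the smallest p for the difference between the pumps were not called between the models under the ACBP pump. Hectd2 was at 71.7 ± 12.8 CPM (SD, n = 5) in CDDP+ACBP and 53.9 ± 8.22 CPM in CRS+ACBP, and at 4.34 ± 1.77 CPM in CDDP and 47.2 ± 7.14 CPM in CRS under the PBS pump. Its interaction was 3.84 ± 0.30 (edgeR adjusted p = 1.58e-09). The antisense gene 1500017E21Rik overlaps an exon of Hectd2, and since the strand setting of the counting is not given, reads of the pair cannot be told apart (interaction 4.02, edgeR adjusted p = 1.58e-09).

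The other 3 were the globin genes of red blood cells. Hba-a1 was at 423 ± 222 CPM (SD, n = 5) in CDDP+ACBP and 289 ± 140 CPM in CRS+ACBP (log2 fold change 0.55, edgeR adjusted p = 0.691), but at 1.34 ± 0.353 CPM in CDDP and 363 ± 248 CPM in CRS. The interaction was 8.62 for Hba-a1, 9.29 for Hba-a2 and 9.62 for Hbb-bs, with edgeR adjusted p of 1.89e-08, 6.67e-08 and 1.89e-08.

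Several other lists set the models apart under the PBS pump and gave 0 or 1 calls under the ACBP pump. Over all genes, 19.5% were called higher and 15.1% lower under the PBS pump, and 20.9% were called in the interaction. Of 30 cytosolic ribosomal protein genes, 28 were called higher in CDDP than in CRS under the PBS pump and 0 under the ACBP pump (medians 1.11 and -0.23), and 28 were called in the interaction. Of 39 interferon-stimulated genes, 28 were called lower under the PBS pump and 0 under the ACBP pump (medians -0.88 and -0.16), with 15 called in the interaction. Of 32 acute phase genes, 14 were called higher and 1 lower under the PBS pump and 0 under the ACBP pump (medians 0.89 and -0.49), with 15 called in the interaction.

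Among acute phase genes Serpina3k, a serine protease inhibitor gene, came nearest to the threshold. It was at 2498, 2262, 1313, 2083 and 3089 CPM in CDDP+ACBP and at 7076, 7439, 4154, 4586 and 5493 CPM in CRS+ACBP, without overlap (log2 fold change -1.35 ± 0.32, edgeR adjusted p = 0.0608). Apcs, which encodes serum amyloid P, had -0.94 (edgeR adjusted p = 0.0699). Saa1 varied widely, at 27.9 ± 17.9 CPM (SD, n = 5) and 187 ± 189 CPM (-2.75, edgeR adjusted p = 0.274).

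Of 25 glucocorticoid receptor targets, 1 was called higher under the ACBP pump, Cdkn1a, and 16 under the PBS pump (medians 0.14 and 1.43). Sult1e1, an estrogen sulfotransferase gene in that list, was at 1.03 ± 1.52 CPM (SD, n = 5) in CDDP+ACBP and 0.703 ± 0.261 CPM in CRS+ACBP, and its interaction was -7.05 (edgeR adjusted p = 0.000218). Of 29 NRF2 targets, which respond to oxidants, 0 were called under the ACBP pump and 17 higher under the PBS pump (medians 0.16 and 1.0). Beside both lists, 19.5% of all genes were called higher under the PBS pump. Of 34 DNA repair and 27 cell cycle genes, 0 were called under the ACBP pump (medians 0.12 and 0.04).

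Markers of other cell types gave 0 calls under the ACBP pump outside the Kupffer list. Skeletal muscle markers had a median log2 fold change of -0.52 over 25 genes, B and plasma cell markers 0.65 over 14, erythroid markers 0.37 over 9 and hepatocyte markers -0.32 over 14. Neutrophil and inflammatory monocyte markers had 0.20 over 8. The part of muscle transcripts or of the lower hepatocyte level of CDDP+ACBP replicate 3 in the results above was not tested beyond the fits without those samples and the fit with a muscle score as covariate, which gave 64 calls, 52 of them among the 55.

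Dbi (ENSMUSG00000026385, chromosome 1, 120113280 to 120121078), which encodes ACBP, was at 1128, 903, 477, 475 and 787 CPM in CDDP+ACBP and at 1055, 737, 785, 780 and 532 CPM in CRS+ACBP. The groups overlapped fully (log2 fold change -0.04 ± 0.27, edgeR adjusted p = 0.97). The pump delivered protein, and this measures the mouse's own transcript. Of the 6 acyl-CoA-binding protein genes tested, 0 were called (median -0.09).

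**Figure D5:**
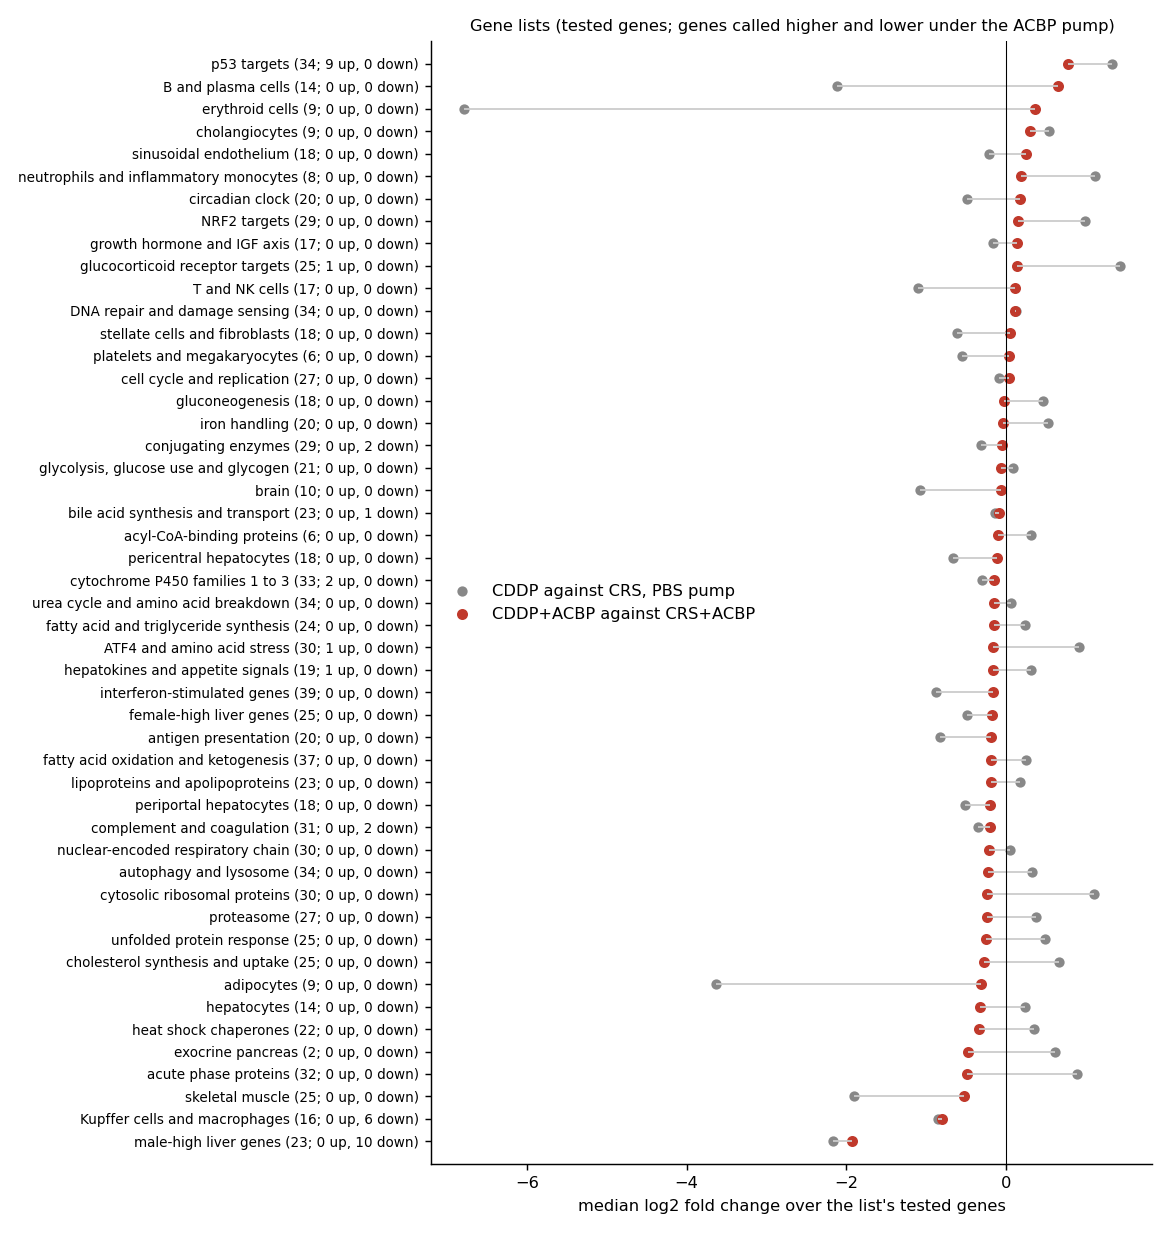
Median log2 fold change over the tested genes of each pathway and cell type list, on a linear horizontal axis, for CDDP+ACBP against CRS+ACBP (red) and CDDP against CRS with the PBS pump (grey); brackets give the genes tested and those called higher and lower under the ACBP pump. The p53, male-high and Kupffer lists have the most calls, and most other medians lie nearer 0 under the ACBP pump than under the PBS pump.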

How the data were processed

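Liver mRNA of the 6 groups came as 1 table of unnormalized counts deposited by the authors. The aligner HISAT2 2.2.1, the read counter HTSeq 2.0.3 and build mm10 are named in the submitters' processing notes. Neither the annotation release nor the strand setting of the counting is given in the sources used here, so antisense and overlapping genes are uncertain. Identifiers matched GENCODE vM21 in 99.2% of cases. The 5 lines for reads not assigned to a gene were dropped, and 35.5 to 38.9% of the reads of the 10 samples lay on genes. Replicates always differed beyond sampling noise (chi-square per degree of freedom of 29.1 or more).

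The main test was the quasi-likelihood F test of edgeR 4.0.16 (R 4.3.3) with filterByExpr and TMM, on 30 samples with 24 residual degrees of freedom, and p-values were adjusted over 16304 genes. The SE is the absolute log2 fold change over the square root of F. Of 1176 entries in 51 lists, 1108 were tested, 65 fell under the filter and 3 had no line in the table. Samples, lists and tests were chosen with earlier results of these data known. Genes were named by rule: Dbi; the 12 largest rises and falls among called genes of at least 5 CPM in 1 group, without provisional symbols or overlap of groups; up to 4 called members per list; and the 5 smallest p for the pump difference. Other list members were named with their values known. Alternatives were RLE normalization, other filters, glmTreat (fold of at least 1.5), a fit of only the groups compared, DESeq2 1.42.0, limma 3.58.1 voom with sample weights, and leaving out each sample. Chosen after seeing the data were a muscle score (mean log2(CPM + 1)) as covariate and a fit without 7 samples, those scoring over 5 and 1 rich in brain transcripts. Code was tested on simulated data. Python 3.11.15, scipy 1.17.1 and matplotlib 3.10.9 gave the permutation test and figures.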

Additional observations from a re-analysis of the deposited data

Results flagged for a closer look

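In each group of 5 samples the highest and lowest were checked for a gap to the nearest other sample above Dixon's limit of 0.71 of the group's range. Over 82 such checks 9 stood out, and chance gives about 1 in 20. CDDP+ACBP replicate 3 stood above the rest of its group for Mdm2 (139.5 CPM), Gria3 (29.84 CPM) and Hmcn2 (56.32 CPM). CDDP+ACBP replicate 5 stood above its group for the urinary protein genes Mup10 (5.963 CPM), Mup11 (10.82 CPM) and Mup14 (1.75 CPM). CRS+ACBP replicate 5 stood above its group for Mup11 (155.9 CPM) and Mup15 (26.46 CPM), and CRS+ACBP replicate 1 for Cdkn1a (12.13 CPM).

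The contrast of cisplatin with restraint differed between the pumps, by edgeR's interaction test at an adjusted p under 0.05, in 14 named genes. Values are the log2 fold change under the ACBP pump minus that under the PBS pump. They were positive for Hbb-bs (9.623), Hba-a2 (9.293), Hba-a1 (8.616), Mup14 (5.348), 1500017E21Rik (4.019), Hectd2 (3.841), Mup11 (3.82), Mup10 (3.146), Cyp2a22 (2.883), Sult5a1 (2.359) and Cyp3a59 (1.378). They were negative for Cdkn1a (-4.625), Serpina1e (-3.81) and Egfr (-2.036). In CDDP under the PBS pump, Mup10, Mup11 and Mup14 averaged only 0.265, 0.115 and 0.0111 CPM. Hba-a2 and Hbb-bs stayed under 1 CPM in those samples. The sizes of the differences in these genes therefore rest on few reads.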

How the results depend on the processing

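Against the 55 calls between the models under the ACBP pump, a fold of at least 1.5 gave 14 (6 higher, 8 lower), a fit of only the 2 groups 19 (9 and 10), DESeq2 137 (77 and 60) and the fit without the samples rich in muscle or brain transcripts 22 (7 and 15). RLE normalization, other filters and the muscle covariate gave 52 to 64, with 51 to 54 of them among the 55. Limma voom gave 61, of which only 39 were among the 55. Leaving out 1 sample gave 17 to 79 calls, 9 to 49 higher and 7 to 30 lower. The lowest were without CDDP+ACBP replicate 3 (17), CDDP+ACBP replicate 1 (24), CRS+ACBP replicate 2 (25), CRS+ACBP replicate 4 (29), CRS+ACBP replicate 5 (32) and CRS+ACBP replicate 3 (36). Every call kept its direction wherever it was tested, and 16 of the 55 were called in all 10 of these fits. Of those, Cyp2a22, Eda2r, Gria3, Mup1, Mup11, Serpina1e and Slco1a1 were called under every other alternative too. Under the PBS pump 5639 calls became 1790 with a fold of at least 1.5, 3709 with only the groups compared and 4711 to 6127 without 1 sample. The interaction's 3412 became 920, 2276 and 2598 to 4091, and 1678 without the muscle- and brain-rich samples. The cause of these shifts was not tested. The difference in mitochondrial share, 1.03 percentage points, was 0.168 to 2.83 without 1 sample and 0.397 as a share of all reads. It never passed. No paired analysis was possible because the labels number the samples from 1 to 30 without pairing the groups. The spread of 5 samples per group limits detection, and counts under about 1 CPM rest on few reads.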
